A study of Homo sapiens with 12 samples.

Results

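HepaRG is a human hepatoma line whose cultures can hold hepatocyte-like and biliary-like cells. RNA sequencing compared wild-type cells (WT) with cells in which the human constitutive androstane receptor was knocked out (KO), each treated with DMSO, phenobarbital (PB) or the receptor agonist CITCO, with 2 libraries in each of 6 groups. The values described here are those of KO cells under PB against WT cells under PB, 4 of the 12 libraries, so both groups carried the drug and differed by the label of the genotype. All loci with at least 1 CPM (read counts scaled to library size by the submitters) in at least 2 of the 12 libraries were taken, 15792 of 15822. The labels do not give the dose or the time of treatment, how the gene was disrupted, or whether the KO cells are 1 clone. They also do not say that duplicates are separate cultures. Every p-value therefore reflects how far the sequenced libraries of a group differ, and that scatter may be purely technical.

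The constitutive androstane receptor, CAR, is a nuclear receptor of hepatocytes encoded by NR1I3. Together with the retinoid X receptor it binds DNA near genes for drug oxidation, conjugation and export and raises their transcription. PB does not bind CAR as a ligand but lets it move into the nucleus, and it also activates the related pregnane X receptor, PXR (NR1I2), whereas CITCO is a direct agonist of human CAR. The comparison asks how far the liver programme of drug-treated cells differs when this receptor is lost.

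Read counts were worked back from the spacing of the deposited values and cover the deposited loci only. By that count the 4 libraries held 66453415 and 61922959 reads (WT) and 64246430 and 63792730 (KO), and 1 read was worth 0.0145 to 0.0179 CPM. Levels differed between duplicates by more than counting noise, with a chi-square per degree of freedom of 10.4 in WT and 5.07 in KO. The values of a library summed to 1113721 and 1106012 CPM in WT and to 929285 and 935052 CPM in KO. Scaling each library to its total therefore raised KO against WT differences by a median of 0.24 on the log2 scale. Where a direction turned with that scaling, both readings are given.

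Between the genotypes under PB, 9214 loci were called (58.3% of those tested; limma, Benjamini-Hochberg adjusted p under 0.05), 4646 higher in KO (29.4%) and 4568 lower (28.9%). With total scaling the split was 8147 higher and 2387 lower. Most called differences were modest, with a median size of 0.50 on the log2 scale. At least 2-fold differences numbered 947 higher in KO (6.0%) and 685 lower (4.34%), and differences of at least 4 on the log2(CPM + 0.5) scale 24 higher and 0 lower. With total scaling the 2-fold counts were 1357 higher and 415 lower. Duplicates of WT and KO did not overlap, with KO above WT, at 39.7% of loci and, with KO below WT, at 39.2%. Differences of at least 4 on the log2(CPM + 0.5) scale thus all lay toward higher levels in KO, while the shares without overlap were near equal.

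**Figure D1:**
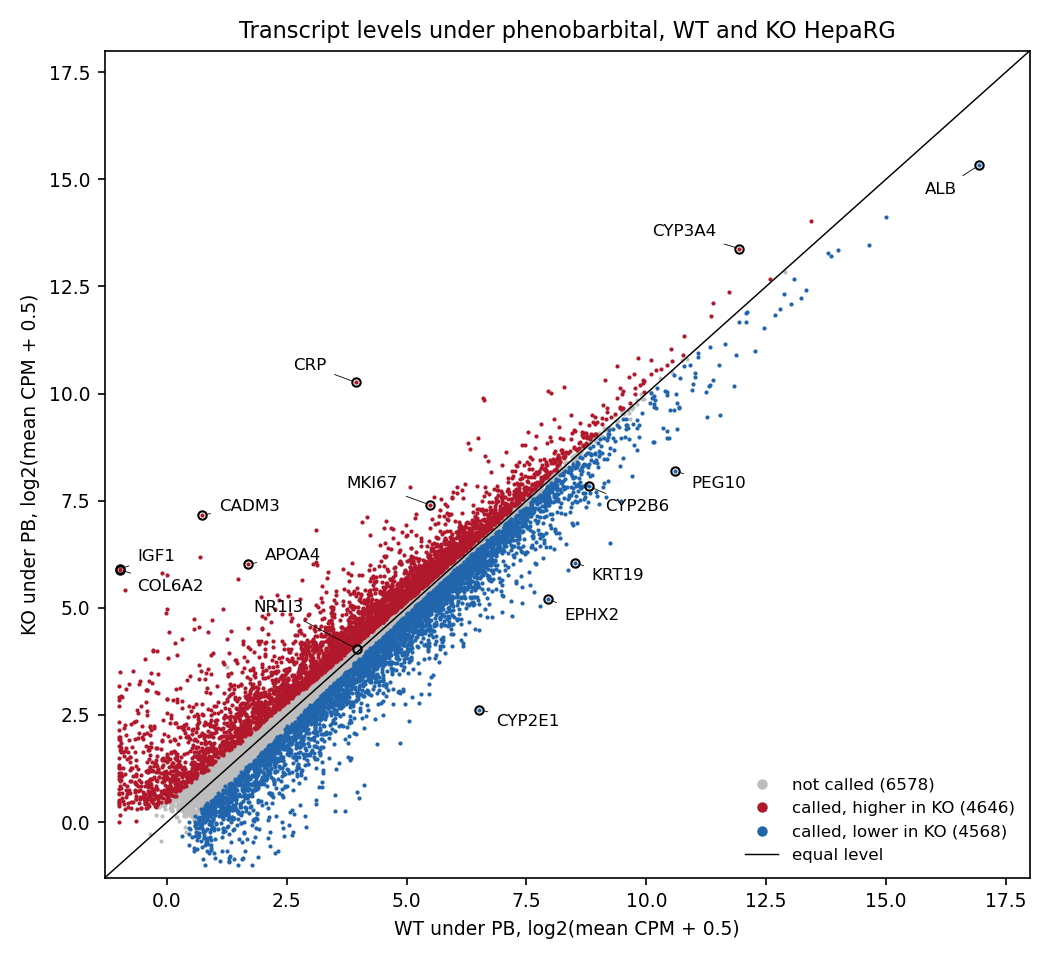
Mean level of each of 15792 loci in WT (horizontal) and KO cells (vertical) under PB, both as log2(mean CPM + 0.5), with called loci coloured by direction and named genes circled. CRP, CADM3, IGF1 and COL6A2 lie far above the line of equal level, CYP2E1, EPHX2 and KRT19 below it, and NR1I3 on it.

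NR1I3 transcript levels lay close together in both genotypes. They were 14.8 and 15.5 CPM in WT and 16.2 and 15.6 CPM in KO under PB, both KO values above both WT values by a narrow margin. The difference was 0.07 on the log2 scale (95% interval -0.12 to 0.25, limma adjusted p = 0.523), and with total scaling it was 0.31 and called. Since the labels do not place the disruption, this level does not check the genotype labels.

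Markers of the cell types that HepaRG cultures could hold were read first. For these and the later lists, the shares over all loci were 29.4% higher in KO and 28.9% lower. With total scaling, 8147 loci were higher and 2387 lower, of 15792. Albumin (ALB), the main secreted protein of hepatocytes, stood at 130121 and 122919 CPM in WT and at 40984 and 41642 CPM in KO under PB, which left the KO libraries far below WT (log2 -1.61, limma adjusted p = 4.32e-17). Of 14 hepatocyte markers, 3 were higher and 10 lower in KO (5 and 8 with total scaling). Their sum ranged from 155683 to 162898 CPM in WT and from 69383 to 70586 CPM in KO. ALB made up most of each sum and of the difference between them. Markers of bile duct and progenitor cells moved unevenly: 4 of 11 were higher and 5 lower (4 and 3 with total scaling). Their sums were 738 to 766 CPM in WT and 419 to 422 CPM in KO, a difference that was mostly KRT19. KRT19, a keratin of bile ducts, had 344 and 387 CPM in WT against 68.4 and 62.4 CPM in KO (log2 -2.47, adjusted p = 4.86e-16), while KRT7, another such keratin, was higher in KO (1.04) at no more than 1.59 CPM in any of the 4 libraries. The secreted phosphoprotein SPP1 (20.9 and 19.3 against 34.6 and 37.1 CPM, 0.82) and the transcription factor SOX4 (0.70) were also higher.

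Of 15 mesenchymal and stellate markers, 8 were higher in KO and 3 lower (10 and 2 with total scaling). TAGLN, an actin-binding protein of smooth muscle, had 4.51 and 4.32 CPM in WT and 38.8 and 39.4 CPM in KO (log2 3.01, adjusted p = 4.19e-15). DCN, a matrix proteoglycan, had 23.5 and 21.7 CPM in WT and 114 and 120 CPM in KO (log2 2.35). The summed mesenchymal level was nevertheless lower in KO (8271 to 8385 CPM in WT, 7999 to 8102 CPM in KO). Fibronectin (FN1, 7701 and 7565 against 7353 and 7253 CPM) made up most of that sum, was not called, and turned to 0.19 with total scaling. Of 3 endothelial markers 0 were higher and 2 lower (1 and 2 with total scaling), and CD14, the 1 blood cell marker tested, was higher in KO (7.46 and 7.84 against 18.8 and 17.6 CPM, 1.20). In bulk RNA, fewer cells of a type and less RNA per cell cannot be told apart, and the part of these markers in the gene groups that follow was not tested.

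Of 20 P450 enzymes listed for drug oxidation, 16 passed the level filter and all 16 were called, against 58.3% over all loci. In KO 7 were higher and 9 lower, a split that total scaling moved to 7 and 8, with a median log2 difference of -0.33, against 0.00 over all loci. CYP3A4, the main drug-oxidising P450 of adult liver, took the most reads of them. It had 4030 and 3826 CPM in WT under PB and 10414 and 10929 CPM in KO, both KO libraries above both WT libraries. KO cells held 2.72 times the WT level (log2 1.44, SE 0.035, limma adjusted p = 2.83e-16). The summed level of the 16 genes was 6378 to 6658 CPM in WT and 13167 to 13828 CPM in KO, and most of the KO sum was CYP3A4. Reads of near-identical P450 copies can be divided between them by the counting, which makes levels within the CYP3A, CYP2C, CYP2A and CYP2B groups uncertain.

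The relatives of CYP3A4 differed in direction. CYP3A43, a minor form, was higher in KO at 3.87 and 4.20 against 8.51 and 10.5 CPM (log2 1.14). CYP3A7, the fetal liver form, had 298 and 277 CPM in WT and 549 and 642 CPM in KO (log2 1.05, adjusted p = 1.73e-09). CYP3A5, present in only some people's livers, went the other way, with 542 and 529 CPM in WT and 372 and 414 CPM in KO (log2 -0.45, adjusted p = 5.79e-08). The promoters of CYP3A4, CYP3A7 and CYP3A5 are shown because all 3 carry 1 copy of an everted repeat of the kind that CAR and PXR bind. RefSeq bases of GRCh38.p14 from 250 before to 50 after each start are printed 5′ to 3′ on the gene's own minus strand, chr7:99784135-99784434 for CYP3A4, chr7:99735147-99735446 for CYP3A7 and chr7:99679947-99680246 for CYP3A5. Capitals mark the outer elements of the repeat.

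CYP3A4: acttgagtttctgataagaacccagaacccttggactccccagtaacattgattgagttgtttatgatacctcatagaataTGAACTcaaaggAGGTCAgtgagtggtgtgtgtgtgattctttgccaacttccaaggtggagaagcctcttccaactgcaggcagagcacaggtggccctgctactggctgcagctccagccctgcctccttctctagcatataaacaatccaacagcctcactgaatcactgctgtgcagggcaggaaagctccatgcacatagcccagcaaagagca
CYP3A7: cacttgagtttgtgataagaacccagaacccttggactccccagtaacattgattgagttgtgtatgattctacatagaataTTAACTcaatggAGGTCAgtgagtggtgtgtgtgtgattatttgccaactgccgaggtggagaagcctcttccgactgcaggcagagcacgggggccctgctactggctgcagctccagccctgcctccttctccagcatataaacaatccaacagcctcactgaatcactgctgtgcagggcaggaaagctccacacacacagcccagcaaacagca
CYP3A5: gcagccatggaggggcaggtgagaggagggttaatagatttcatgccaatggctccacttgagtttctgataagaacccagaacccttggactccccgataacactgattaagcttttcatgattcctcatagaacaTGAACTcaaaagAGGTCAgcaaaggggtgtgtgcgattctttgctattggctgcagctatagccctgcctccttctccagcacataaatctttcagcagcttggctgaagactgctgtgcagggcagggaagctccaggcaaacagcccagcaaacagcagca

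The pattern searched, on both strands, was TNAACTNNNNNNAGGTCA, written after these promoters had been read. It starts 169 bases before the start of CYP3A4, 168 before that of CYP3A7 and 113 before that of CYP3A5. Counted from 1 at the 5′ end of the pattern, CYP3A7 differs from CYP3A4 in the outer elements by G2T. Among 35116 RefSeq promoters of that length 10 hold the pattern (0.0285%), and 3 hold it with G at the second place (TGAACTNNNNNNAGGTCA, 0.00854%), whereas the element AGGTCA alone occurs in 13.8%. The 3 CYP3A genes shown thus did not differ in the same direction between the genotypes. CYP3A43, higher in KO, had 0 matches. A match describes letters and shows neither binding nor a cause.

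CYP2B6, the usual marker gene of CAR activation, was lower in KO but far from absent. Under PB it had 442 and 447 CPM in WT and 230 and 226 CPM in KO, a 1.95-fold gap without overlap (log2 -0.96, 95% interval -1.09 to -0.84, limma adjusted p = 9.36e-11). Without drug the gap was -1.86, and under CITCO -4.64. Its transcribed pseudogene CYP2B7P differed by -0.65 under PB. CYP2C8, which oxidises paclitaxel, was lower in KO too (415 and 383 against 276 and 280 CPM, log2 -0.52). CYP2A6, the nicotine oxidase, stood at 151 and 163 CPM in WT and 320 and 316 CPM in KO (log2 1.01, adjusted p = 2.23e-12).

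Other P450 genes followed neither pattern. CYP2E1, which oxidises ethanol and acetaminophen, had 92.6 and 89.7 CPM in WT and 5.86 and 5.47 CPM in KO, 16.1 times less (log2 -3.90, adjusted p = 1.14e-17). CYP2D6, an enzyme of many antidepressants, had 0.804 and 0.911 CPM in WT and 5.05 and 4.97 CPM in KO (log2 2.02). The dioxin-inducible CYP1A1 and CYP1A2 were low in all 4 libraries, at or below 2.48 and 1.30 CPM. Both were lower in KO (-1.32 and -0.84), but the CYP1A2 call was lost without WT replicate 2 (-0.65) or KO replicate 2 (-0.51).

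**Figure D2:**
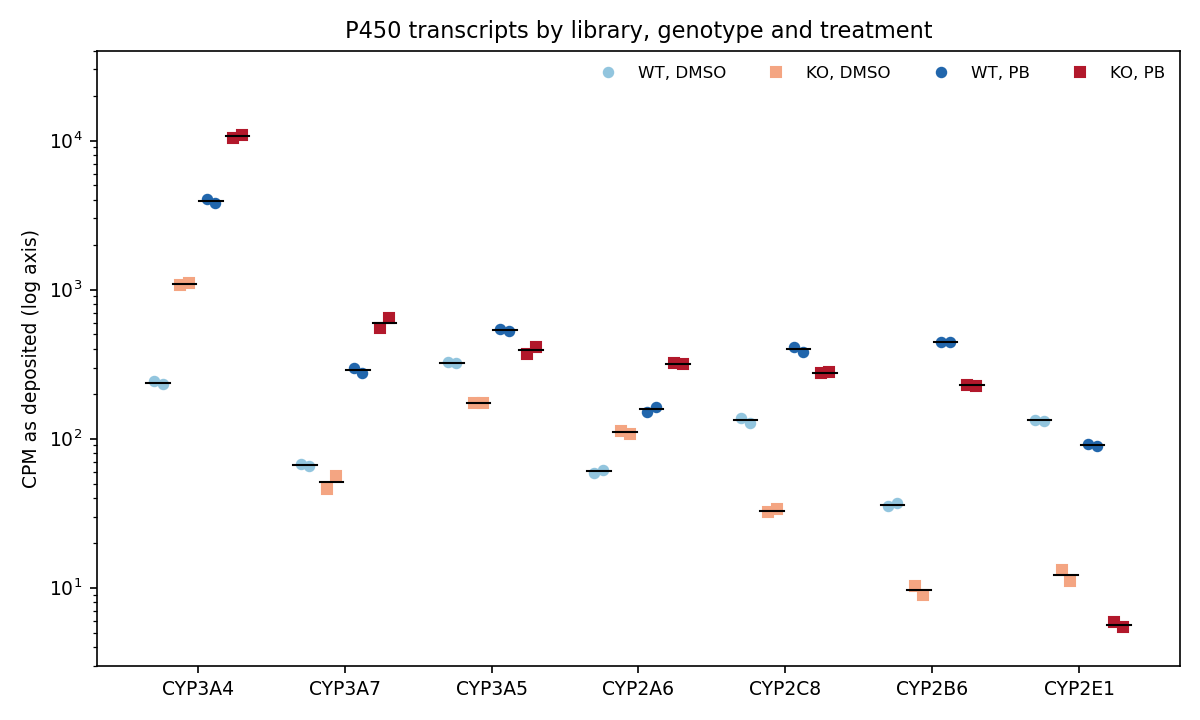
Levels of 7 P450 transcripts in each library (CPM, log axis), circles for WT and squares for KO, pale for DMSO and dark for PB, with a bar at each mean of 2 libraries. CYP3A4 is highest in KO under PB, and CYP2E1 lies below 15 CPM in every KO library shown. CYP2B6 and CYP2C8 in KO remain below WT under PB, by a smaller ratio than under DMSO.

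Of 13 genes that supply electrons and heme to P450 enzymes, 4 were higher in KO and 5 lower (6 and 2 with total scaling), a called share of 69.2% against 58.3% over all loci, and 0 reached 2-fold. POR, which passes electrons to microsomal P450 enzymes, had 377 and 411 CPM in WT and 472 and 457 CPM in KO (log2 0.24, adjusted p = 0.000222). ALAS1, the first step of heme synthesis, had 96.5 and 94.2 CPM in WT and 123 and 120 CPM in KO (0.34). CYB5A, the cytochrome b5 partner, was lower (-0.40), and so was ALAD of heme synthesis (-0.71).

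The remaining enzymes of drug oxidation and hydrolysis were mostly lower in KO, 19 of 23, with 1 higher (16 and 4 with total scaling) and a median of -0.80. EPHX2, the soluble epoxide hydrolase, had 249 and 243 CPM in WT and 35.6 and 36.9 CPM in KO, 6.78 times less (log2 -2.74, adjusted p = 9.05e-19). The carboxylesterases, which split ester prodrugs, were lower as well: CES1 at 4909 and 4985 against 2054 and 2038 CPM (-1.27), and CES2 at -1.48. Alcohol dehydrogenase ADH1B (-1.08), aldehyde dehydrogenase ALDH1A1 (-1.12) and the aldo-keto reductase AKR1B10 (-1.28) followed. The 1 member higher in KO was AKR1D1, a steroid reductase of bile acid synthesis, at 29.4 and 28.3 against 65.8 and 64.4 CPM (1.16).

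Of 24 conjugation enzymes, 5 were higher and 18 lower in KO (6 and 12 with total scaling; median -0.48). UGT2A3, a glucuronosyltransferase, had 339 and 320 CPM in WT and 58.9 and 58.6 CPM in KO (log2 -2.48, adjusted p = 5.77e-18), and UGT2B7, which conjugates morphine, was lower by a log2 difference of -1.67. GSTA1, a glutathione transferase, had 1652 and 1525 against 553 and 594 CPM (-1.47). UGT1A1, which conjugates bilirubin, was close to equal (1174 and 1128 against 979 and 1005 CPM), and its call of -0.21 turned to 0.038 with total scaling. The acetyltransferases NAT1 (-1.43) and NAT2 (-1.16) were lower, whereas NNMT, which methylates nicotinamide, was higher (0.67).

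Of 22 transporters of drugs and bile acids, 4 were higher in KO and 17 lower (5 and 14 with total scaling; median -0.56). SLC10A1, the bile acid importer of the hepatocyte's blood side, had 45.4 and 47.9 CPM in WT and 11.3 and 9.4 CPM in KO (log2 -2.12, adjusted p = 2.82e-13). The organic anion importer SLCO1B3 (77.9 and 65.7 against 17.2 and 16.2 CPM, -2.07) and the sterol exporter subunit ABCG8 (162 and 176 against 45.1 and 43.2 CPM, -1.92) moved alike. Higher in KO were the bile salt export pump ABCB11 (27.1 and 26.3 against 59.3 and 63.6 CPM, 1.19) and SLC51A, a subunit of the basolateral bile acid exporter (3.39 and 4.23 against 22.6 and 18.4 CPM, 2.29). Its partner subunit SLC51B was lower (-1.02). ABCB1, the P-glycoprotein pump, was nearly equal under PB (237 and 217 against 258 and 257 CPM, 0.18).

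Of 22 receptors and partners, 5 were higher and 9 lower in KO (11 and 5 with total scaling), a called share of 63.6% against 58.3% over all loci, and 0 reached 2-fold. NR1I2, which encodes PXR, had 30.3 and 31.6 CPM in WT and 22.9 and 24.1 CPM in KO (log2 -0.39, adjusted p = 4.04e-05), a call lost with total scaling (-0.14). RXRA, the common partner of CAR and PXR, was lower too (116 and 128 against 88.4 and 88.9 CPM, -0.46). HSP90AA1, a chaperone that holds CAR in the cytoplasm, was higher (695 and 654 against 951 and 957 CPM, 0.50).

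Liver transcription factors were lower in 15 of 24 and higher in 4 (11 and 6 with total scaling; median -0.35). HNF4A, which sustains the hepatocyte programme, had 323 and 335 CPM in WT and 186 and 185 CPM in KO (log2 -0.83, adjusted p = 1.27e-11). GATA4 (40.7 and 46.5 against 13.7 and 13.6 CPM, -1.64), HLF (-1.78), FOXA3 (-1.59) and CEBPA (-1.10) were lower, while TBX3 (0.64), HNF4G (0.45) and FOXA2 (0.44) were higher. FOXA1 (-0.98) and FOXA2 therefore differed in opposite directions.

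Secreted plasma proteins divided, with 12 of 33 higher in KO and 18 lower (16 and 15 with total scaling). APOA1, the main protein of high-density lipoprotein, had 3411 and 3831 CPM in WT and 1169 and 1156 CPM in KO (log2 -1.64, adjusted p = 6.49e-15). Other apolipoproteins stood on the opposite side: APOA4 at 2.90 and 2.59 CPM in WT and 64.8 and 63.8 CPM in KO, 23.4 times higher (4.32), and APOA2 at 62.1 and 60.3 against 194 and 188 CPM (1.63). Coagulation factor F9 had 9.69 and 9.70 CPM in WT and 57.4 and 56.6 CPM in KO (2.49), whereas factors F10 (-1.21) and F5 (-0.70) were lower.

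Proteins of the acute phase and complement were higher more often, 11 of 21 against 6 lower (14 and 5 with total scaling), with a median of 0.39. Over all loci 29.4% were higher and 28.9% lower, so the share of lower members was near that of all loci. CRP, the classic serum marker of inflammation, had 14.9 and 14.7 CPM in WT and 1225 and 1231 CPM in KO, 83 times the WT level (log2 6.33, SE 0.043, limma adjusted p = 2.81e-24). Ceruloplasmin (CP) had 319 and 299 against 1120 and 1151 CPM (1.88), complement C9 had 93.8 and 85.6 against 491 and 499 CPM (2.46), and the fibrinogen chain FGG was higher by 0.73. SAA1, induced with CRP by cytokines in liver, missed the threshold (1252 and 1251 against 1306 and 1322 CPM, 0.07, adjusted p = 0.0514) and was called with total scaling (0.32). C3 (-0.55), C6 (-1.12) and ORM1 (-0.40) were lower, so the group did not shift as a whole.

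Amino acid catabolism and the urea cycle had 20 of 27 genes lower and 4 higher (18 and 6 with total scaling; median -0.48). HGD, of tyrosine breakdown, had 276 and 267 CPM in WT and 113 and 114 CPM in KO (log2 -1.25, adjusted p = 8.22e-15), and the proline oxidase PRODH was lower by a log2 difference of -1.84. ARG1, the last step of the urea cycle, was higher (61.4 and 52.8 against 167 and 166 CPM, 1.54). CPS1, its first step, was lower (-0.56).

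Enzymes of bile acid synthesis differed in direction: CYP7A1, the rate-limiting step, had 92.8 and 86.0 CPM in WT and 33.8 and 37.3 CPM in KO (-1.32), while CYP8B1, which makes cholic acid, had 45.7 and 43.6 against 114 and 118 CPM (1.37). Of 19 such genes 5 were higher, near the 29.4% over all loci, and 10 lower (7 and 8 with total scaling). Fatty acid oxidation had 17 of 23 genes lower and 5 higher (11 and 7 with total scaling), among them PDK4, a brake on glucose oxidation (131 and 122 against 31.2 and 27.5 CPM, -2.09), and EHHADH of peroxisomal oxidation (-1.41). The lipid droplet protein PLIN2 was higher (183 and 185 against 554 and 554 CPM, 1.59). DGAT2, which completes triglycerides, was lower (315 and 323 against 88.6 and 91.4 CPM, -1.82), within a list of 19 with 13 lower and 3 higher (6 and 6 with total scaling).

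Cholesterol synthesis and uptake had 13 of 23 genes lower and 4 higher (9 and 10 with total scaling), so its balance depended on the scaling. HMGCS1, an early step, had 380 and 353 CPM in WT and 175 and 183 CPM in KO (-1.03), and SC5D, a late step, was lower by a log2 difference of -1.27. SREBF2, which encodes a transcription factor of this pathway, was higher (0.84). Gluconeogenesis and glycogen genes were lower in 10 of 16 and higher in 4 (6 and 6 with total scaling). PCK1, which commits carbon to glucose, had 44.2 and 42.7 against 21.3 and 22.4 CPM (-0.98), and the liver glycogen synthase GYS2 was higher (7.42 and 6.18 against 16.4 and 18.2 CPM, 1.29).

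All 12 mitochondrially encoded transcripts tested were lower in KO (11 with total scaling), with a median of -0.84. The sums were 126283 to 127688 CPM in WT and 68386 to 72022 CPM in KO. MT-RNR2, the large ribosomal RNA, had 25886 and 25423 CPM in WT and 10999 and 11654 CPM in KO (log2 -1.18, adjusted p = 1.91e-15), and MT-ND1 differed least (-0.32, a call lost with total scaling). RNA selection is not given in the sources used here, and its part in these levels was not tested.

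Cell cycle genes formed one of the most one-sided lists: 34 of 41 were higher in KO and 1 lower (36 and 0 with total scaling), with a median of 0.55. MKI67, the proliferation marker, had 44.1 and 44.6 CPM in WT and 171 and 166 CPM in KO, 3.80 times higher (log2 1.91, adjusted p = 5.07e-16). TOP2A, which untangles chromosomes, had 64.6 and 56.8 against 186 and 191 CPM (1.63), and the mitotic kinase CDK1 had 13.2 and 13.3 against 41.2 and 42.0 CPM (1.61). Replication licensing genes differed less and not all in 1 direction. MCM2 was higher by 0.45 and MCM6 by 0.20, while MCM5 was lower (-0.24, which turned to 0.0082 with total scaling). The inhibitor CDKN1A was higher as well (204 and 218 against 281 and 280 CPM, 0.41).

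Hypoxia and glycolysis genes were higher in 22 of 26 and lower in 3 (23 and 2 with total scaling), with a median of 0.73. PFKFB4, a regulator of glycolysis, had 3.75 and 3.84 CPM in WT and 27.0 and 30.02 CPM in KO (log2 2.75, adjusted p = 1.09e-14). EGLN3, an oxygen-sensing hydroxylase induced by hypoxia, had 37.9 and 34.4 against 143 and 149 CPM (2.00), and the peptide hormone ADM had 10.9 and 11.02 against 39.9 and 43.2 CPM (1.88). ENO2, the neuronal enolase, was nearly silent in WT (0.268 and 0.196 CPM) and stood at 13.2 and 13.9 CPM in KO (4.26). Among the members lower in KO were the liver glucose transporter SLC2A2 (-0.79) and PFKP (-0.23, which turned to 0.013 with total scaling).

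Genes of the unfolded protein response and of ATF4 were higher in 12 of 23 and lower in 4 (18 and 2 with total scaling). The chaperone HSPA5 was not called (505 and 505 against 498 and 514 CPM), but was called with total scaling (0.25). DDIT4, an inhibitor of growth signalling, had 57.4 and 66.0 CPM in WT and 209 and 209 CPM in KO (log2 1.75), while XBP1, a regulator of secretory capacity, had 289 and 287 against 107 and 108 CPM (-1.42). Interferon-induced genes, with 7 of 26 higher and 8 lower (13 and 4 with total scaling), were called about as often as all loci (57.7% against 58.3%): IFIT1 was lower (-1.20) and OAS2 was higher (0.88). NRF2 targets were higher in 5 of 21 and lower in 11 (11 and 7 with total scaling): the peroxidase GPX2 had 28.5 and 30.1 against 108 and 108 CPM (1.86), and the glutathione reductase GSR had 202 and 205 against 80.3 and 85.2 CPM (-1.29).

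Wnt pathway genes were higher in 5 of 17 and lower in 6 (8 and 4 with total scaling), near the 29.4% and 28.9% over all loci. The Wnt inhibitor DKK1 had 18.9 and 20.3 CPM in WT and 57.6 and 61.3 CPM in KO (log2 1.58). The glutamine synthetase GLUL, a target of the pathway in liver, was lower (-0.70), whereas AXIN2 (0.56) and LGR5 (1.18) were higher. Of 9 imprinted and fetal liver genes tested, 6 were higher and 2 lower with either scaling. PEG10, an imprinted gene, had 1583 and 1519 CPM in WT and 291 and 291 CPM in KO (-2.41, adjusted p = 3.75e-19), AFP was lower (-1.89), and HMGA2, a chromatin protein of early development, was higher (5.88 and 6.54 against 21.3 and 21.5 CPM, 1.71).

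**Figure D3:**
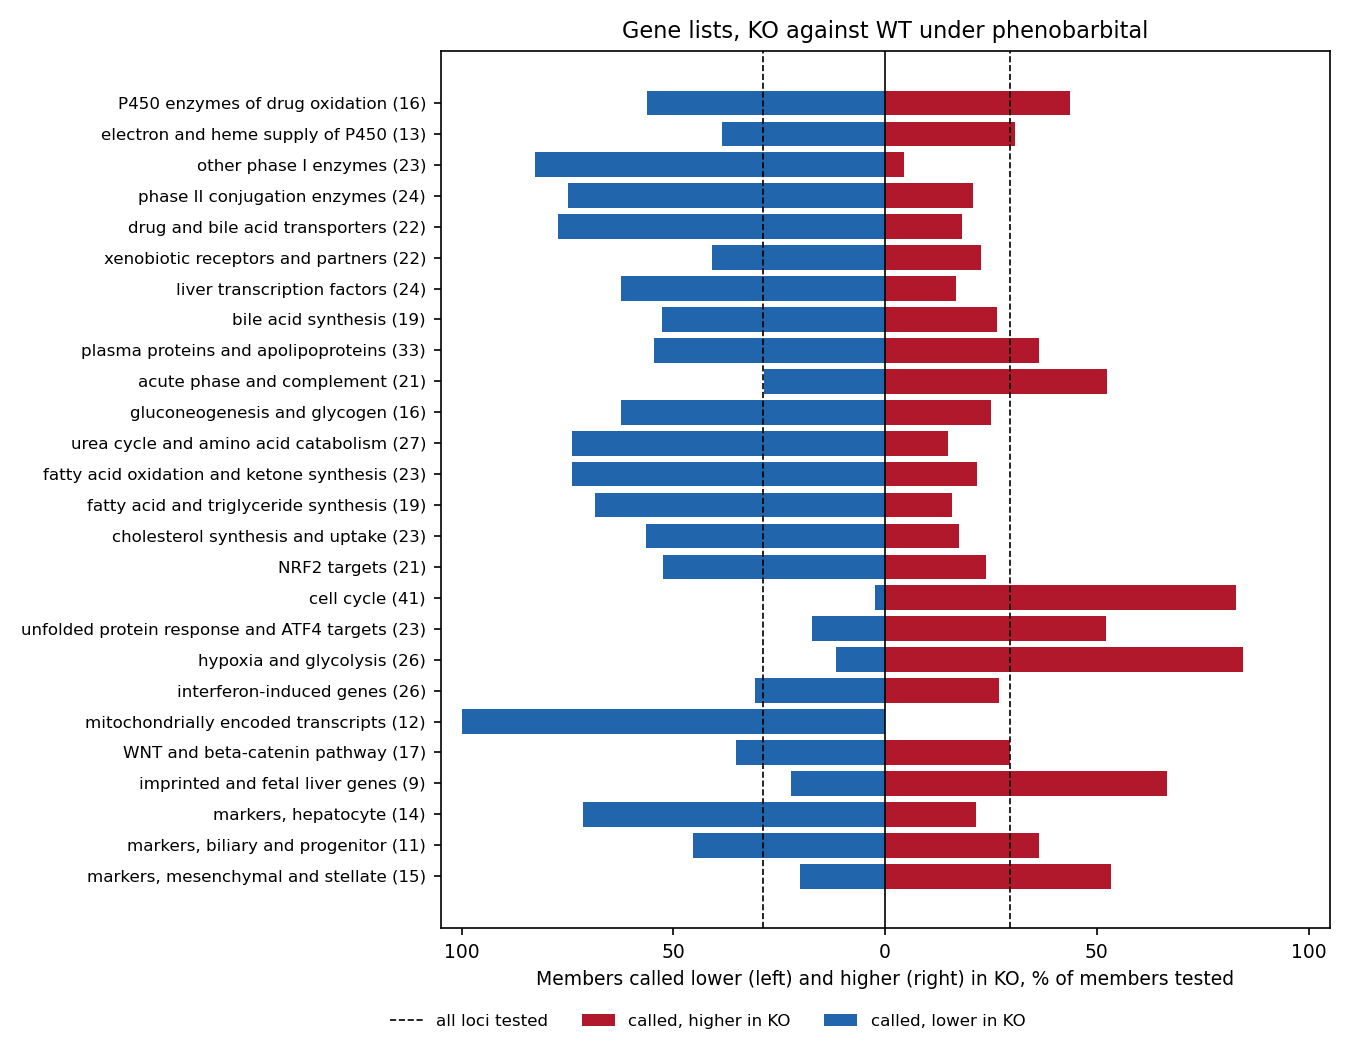
Share of each list's tested members (number in brackets) called higher (right) or lower (left) in KO than in WT under PB, with dashed lines at the share over all loci tested. Cell cycle and hypoxia lists extend furthest to the right, and mitochondrial transcripts and the other phase I enzymes furthest to the left.

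A set of genes was close to silent in WT and expressed in KO. By the rule of both libraries under 0.5 CPM in 1 genotype and at least 5 CPM in both of the other, 33 genes were near absent in WT and 3 in KO. IGF1, the insulin-like growth factor that liver secretes, had 0 and 1 read in WT (0 and 0.0179 CPM) and 59.9 and 59.3 CPM in KO. COL6A2, a collagen VI chain, had 0 and 1 read against 59.1 and 58.5 CPM, although its neighbour COL6A1 was at 100 CPM in WT and 115 CPM in KO. Across all 6 WT libraries the highest count of IGF1 was 2 reads and that of COL6A2 7 reads, so both were near silent in WT under every treatment.

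Of these 33 genes, those with 0 reads in both WT libraries were PPAPDC1A (9.08 and 7.94 CPM in KO, at least 328-fold higher), the receptor phosphatase PTPRD (at least 273-fold), the glutamate receptor subunit GRIA1 (at least 258-fold) and CTD-2545M3.2 (at least 232-fold). These bounds set WT at 3 reads over the group. NQO1, a quinone reductase and NRF2 target, had 9 and 20 reads in WT (0.151 and 0.357 CPM) and 5.25 and 5.01 CPM in KO. The cancer-testis genes SSX4 and SSX4B, near-identical copies whose reads cannot be separated, PAGE1 and CT55 were also near absent in WT, as were the keratins KRT16 and KRT17. The 3 genes near absent in KO were KAL1 (7.09 and 6.77 CPM in WT), the imprinted growth suppressor DIRAS3 (5.33 and 6.02 CPM) and LINC01085.

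Among genes above that limit, CADM3, an adhesion molecule of neurons, had 1.06 and 1.27 CPM in WT and 142 and 144 CPM in KO (log2 6.43, adjusted p = 9.05e-19). PAGE2B, a cancer-testis gene, had 0.989 and 1.23 against 68.1 and 76.4 CPM (5.50). On the lower side ERP27, a protein of the endoplasmic reticulum, had 12.8 and 12.4 CPM in WT and 0.911 and 0.484 CPM in KO (-3.48), NELL2 had 17.5 and 15.9 against 1.69 and 0.938 CPM (-3.28), and the secreted phospholipase PLA2G2A had 26.7 and 30.5 against 3.05 and 3.12 CPM (-3.02).

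Most loci called between the genotypes under PB were also called under DMSO, in a comparison of 4 other libraries. Under DMSO 9106 loci were called (57.7%). The 7791 loci called under both treatments were 84.6% of those called under PB and 85.6% of those called under DMSO, and 7778 of them had the same direction and 13 the opposite one. Of loci at least 2-fold higher in KO, 740 were so under both, 78.1% of the 947 under PB and 86.1% of the 859 under DMSO. For the 2-fold lower loci, 558 were shared, 81.5% of 685 and 82.8% of 674. ALB (-1.55 under DMSO), CRP (5.83), CYP2E1 (-3.40), EPHX2 (-2.65) and KRT19 (-2.27) had a gap of the same sign without the drug.

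The difference between the gaps was tested directly, and 159 loci were called for it (1.01%), 126 upward (0.798%) and 33 downward (0.209%). The count was 66 without KO replicate 1 and 71 without KO replicate 2 of the PB libraries, and 25 with a constant prior variance. Of the 33 downward, 8 were copies of the ribosomal RNA gene RNA5-8S5, which share reads. CYP2C8, among the drug metabolism genes, had a gap of -1.99 under DMSO (132 CPM in WT, 32.9 in KO) and -0.52 under PB, a difference of 1.47 (adjusted p = 6.93e-10). The CYP2B6 gap of -1.86 (36.1 and 9.59 CPM) narrowed to -0.96, a difference of 0.90 (adjusted p = 6.65e-06). CYP3A5 narrowed from -0.90 to -0.45. CYP3A4 narrowed from the other side, from 2.20 (237 and 1090 CPM) to 1.44, a difference of -0.76 (adjusted p = 9.81e-08).

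Some genes turned or opened their gap with the drug. CYP3A7 was lower in KO under DMSO (66.8 and 51.0 CPM, -0.39) and higher under PB (1.05), a difference of 1.44 (adjusted p = 9.34e-07). ABCB1 went from -0.59 to 0.18 and ALAS1 from -0.27 to 0.34. FMO5, a flavin monooxygenase, was equal under DMSO (66.8 and 68.9 CPM, 0.04) and lower in KO under PB (67.6 and 64.0 against 38.5 and 36.9 CPM, -0.79), a difference of -0.84 (adjusted p = 9.05e-06). POSTN, a matrix protein, opened a gap from 0.09 to 1.11, and the transcription factor FOXN4, with 1.98 and 2.21 CPM in WT and 7.54 and 7.53 CPM in KO under PB, went from -0.26 to 1.63. By kind, 78 of the 159 had a gap of the same direction that was larger under PB and 38 one that was smaller, 15 were called under PB alone, 19 under DMSO alone (8 of them RNA5-8S5) and 9 in opposite directions.

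**Figure D4:**
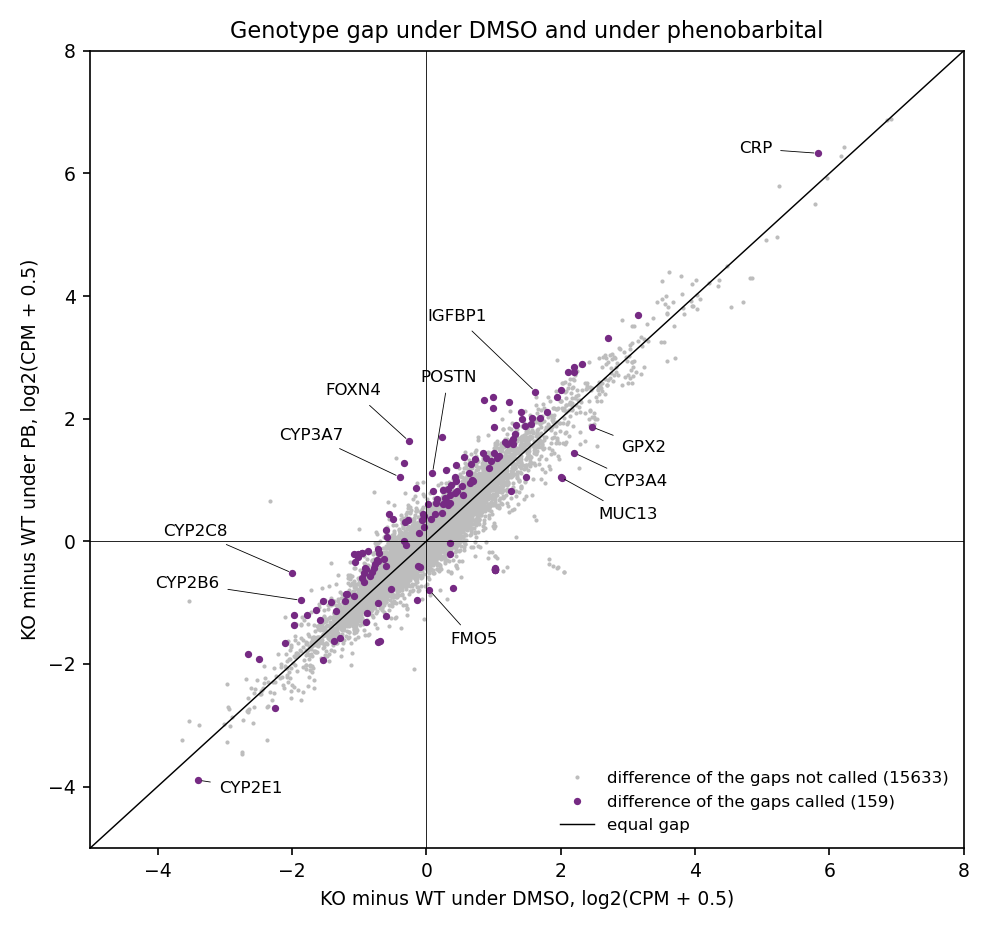
KO minus WT difference of each locus under DMSO (horizontal) and under PB (vertical), both in log2(CPM + 0.5), with the 159 loci called for the difference of the gaps in purple and the line of equal gap. CYP2B6 and CYP2C8 lie above the line on the left and CYP3A4 below it on the right. CRP lies far to the upper right and CYP2E1 far to the lower left.

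The authors' deposited table named for this comparison holds the difference of the gaps, not the gap under PB. Over 14161 shared loci the log2 fold changes in the authors' deposited table differed from the direct gap by a median of 0.263 and from the difference of the gaps by 0.00358. In that deposited table CYP2B6 has 0.95 and CYP3A4 -0.76, signs opposite to the levels under PB. Adding the log2 fold changes of the authors' deposited table for DMSO gave -0.96 and 1.45.

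The genotype difference was not spread evenly over the genome. Gene symbols placed 13586 loci in RefSeq order on GRCh38.p14, cut into windows of 50 neighbouring loci, of which 259 were full, and the stretches described were picked after these medians were seen. Most windows lay close to 0, with a median of 0.01. The first 3 windows of chromosome 8 stood lowest, with medians of -0.93, -0.93 and -0.87, and 129 of their 150 loci were lower in KO. The median of the 150, -0.92, is a 1.89-fold lower level. In the rest of chromosome 8, 80 of 319 loci were lower and the median was 0.08. The step was as large under DMSO, with window medians of -0.89, -0.88 and -0.94.

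All 7 list members in that stretch were lower in KO, near the share of all its loci (129 of 150). The 7 were EPHX2, NAT1, NAT2, GATA4, the glutathione reductase GSR, the glycogen regulator PPP1R3B (-1.42) and the squalene synthase FDFT1 (-0.84). CYP7A1, on the same chromosome outside it, was lower too. Chromosome 12 shifted in steps, from a median of 0.00 over its first 3 windows to 0.29 over windows 4 to 9 and 0.50 over windows 10 to 14, where 188 of 240 loci were higher in KO and 15 lower. IGF1 lies in that last stretch with HAL of histidine breakdown (2.09), but ACADS of fatty acid oxidation there was lower (-2.27). Of 17 list members in that last stretch, 9 were higher and 5 lower. With total scaling the chromosome 8 windows had medians of -0.69, -0.68 and -0.65. Beside the drug metabolism lists these stretches are a measured feature of the KO against WT difference, and their part in it was not tested.

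**Figure D5:**
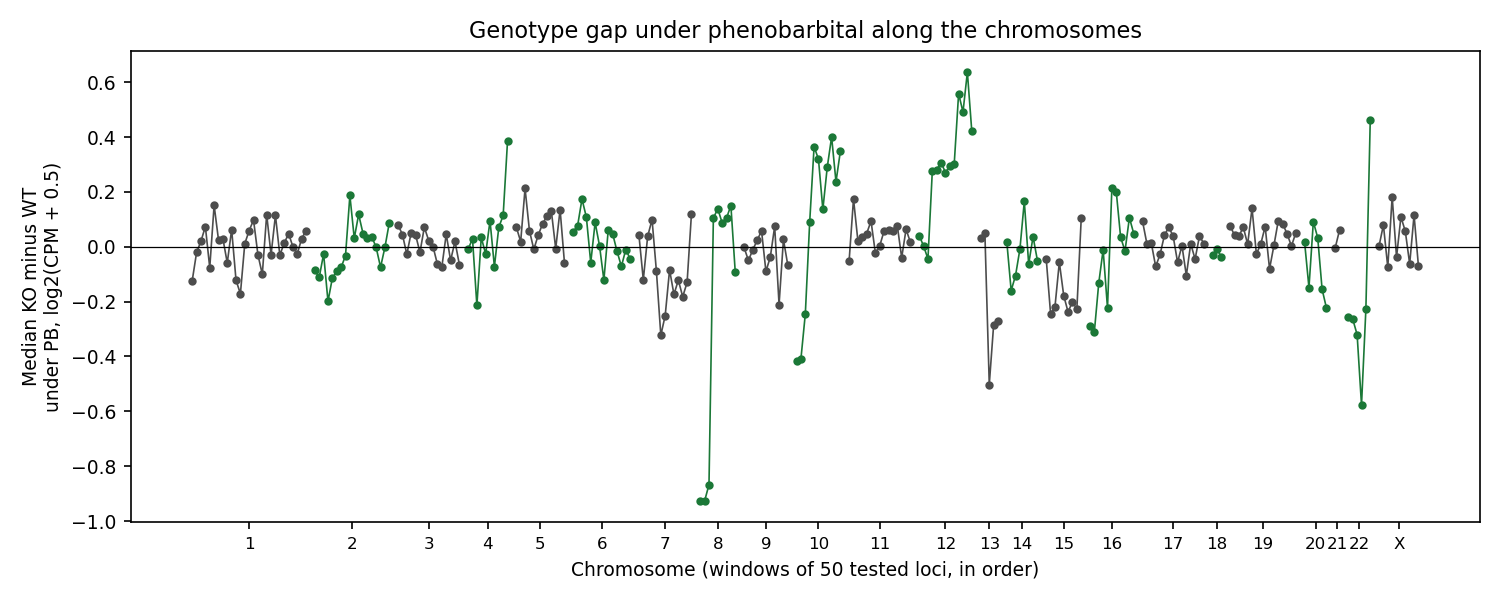
Median KO minus WT difference under PB, in log2(CPM + 0.5), for 259 windows of 50 tested loci in order along each chromosome (grey and green alternate by chromosome). The first 3 windows of chromosome 8 lie near -0.9, the last ones of chromosome 12 between 0.42 and 0.64, and most others within 0.2 of 0.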

How the data were processed

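The authors deposited 1 table of 15822 loci with gene symbols. Its values, a normalized signal called CPM in the deposited table, are whole reads divided by library sizes that carry normalization factors, since the deposited totals ranged from 900290 to 1113721 CPM. The submitters' processing notes name edgeR 2.12, Cuffdiff 2.1.1, Cufflinks 2.1.1, TopHat2 2.0.10 and Bowtie 1.0.0 and 2 human builds, with no role or order. The authors' deposited comparison tables hold log2 fold changes and p-values, of which only the fold changes of 2 tables are printed. The plan had allowed for counts or plain CPM.

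Levels were compared with limma 3.58.1 (R 4.3.3) on log2(CPM + 0.5), which understates changes of low genes, with a trended prior, after keeping loci that reached 1 CPM in 2 or more libraries. The fit held all 12 libraries, 6 group means and 6 residual degrees of freedom. Calls are Benjamini-Hochberg adjusted p under 0.05 over all 15792 loci, and differences are KO minus WT. The fit was tested on simulated data with independent normal scatter and few changed loci. That test cannot show how the fit behaves where libraries are related or most loci differ. Levels are compared within genes, not between them, since CPM is not per length. Named genes were fixed drug metabolism genes and controls, and by rule those with the largest called differences overall (up to 12 per direction), in each list (up to 4 per direction, mean of at least 5 CPM in 1 PB group) and for the difference of the gaps (up to 6), plus near-absent and most abundant members. Genes shown beside these (F5, FMO5, FOXA1, MCM2, MCM6, MT-ND1, NAT2, SAA1, SLC51B, KRT16, KRT17, PAGE1, CT55, COL6A1, PPARA, PNPLA3, those with 0 reads in WT and the neighbours on chromosomes 1 and 19) were chosen after their values were seen. Some genes are not reported here. The members and lists were chosen with earlier results of these data known.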

Additional observations from a re-analysis of the deposited data

Results flagged for a closer look

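For 18 results the genotype gap under PB differed from the gap under DMSO by the test of that difference (limma, adjusted p under 0.05). The 18 were fixed drug metabolism genes and loci named for the largest called differences by this same test. The calls of the latter were thus set by how they were chosen. Other named genes were called too, with differences of -0.84 for FMO5, -0.60 for GPX2, 0.50 for CRP and 0.36 for MKI67, among others. The PB gap minus the DMSO gap, in log2, was 1.89 for FOXN4, 1.47 for CYP2C8, 1.44 for CYP3A7, 1.18 for PNLIPRP2, 1.04 for RP11-14C10.5, 1.01 for POSTN, 0.90 for CYP2B6, 0.78 for ABCB1, 0.61 for ALAS1 and 0.46 for CYP3A5. It was -0.49 for CYP2E1 and -0.76 for CYP3A4. Of these, CYP3A7 was higher in KO under PB and lower under DMSO, as were ABCB1 and ALAS1.

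The 6 other results are loci, of 8 called, with the same symbol, RNA5-8S5, a ribosomal RNA present in many copies, with differences of -1.49, -1.49, -1.48, -1.48, -1.47 and -1.47. They share reads and count as 1 observation. KO libraries under PB held about 3.07 and 6.11 CPM at one of these loci, against 5.93 and 6.48 CPM in WT, so that 1 KO library stood apart from the other.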

How the results depend on the processing

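With every library scaled to its total, 8147 loci were higher and 2387 lower in KO and 415 were at least 2-fold lower. A stricter filter on low values, 5 CPM in 2 or more libraries, left 625 loci at least 2-fold higher. The difference of the gaps was called at 25 loci with a constant prior variance and at 66 to 166 when 1 PB library was left out, while the PB gap was called at 7692 to 8379. Replicate numbers were not taken as pairs. Their same-number correlation was 0.0009 between the PB groups, and 0.0009 to 0.479 among the 4 groups behind the difference of the gaps. It was 0.478 between KO DMSO and KO PB, 0.479 between WT DMSO and WT PB and 0.404 between the DMSO groups. A replicate block gave 9221 calls for the PB gap and 153 for the difference of the gaps. That block is 1 effect shared by all 6 groups, so it cannot test pairing within a genotype. Over 292 named genes and 12 settings, 24 values turned sign. With total scaling these were ABCC3 (0.031), ACADVL (0.0006), APC (0.034), B2M (0.22), CREB3L3 (0.051), DNAJB9 (0.0081), FN1 (0.19), FTH1 (0.21), HMOX1 (0.012), MCM5 (0.0082), MSMO1 (0.20), NCOR1 (0.24), PFKP (0.013), PNPLA3 (0.24), PYGL (0.067), SCD (0.0093), SPARC (0.054) and UGT1A1 (0.038). With 1 library left out, MSMO1 ranged from -0.11 to 0.0042, NCOR1 from -0.053 to 0.024 and PNPLA3 from -0.020 to 0.0045, all 3 above 0 without WT_PB replicate 1 and the last 2 also without KO_PB replicate 1, and HSPA5 ranged from -0.020 (without KO_PB replicate 2) to 0.025. Of 1168 named values with 1 library left out, 39 changed call or sign. The cause was not tested. With 2 libraries a group, an exact permutation test of 1 gene cannot pass the threshold, and levels near 1 read are limited by depth.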

Other observations

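Several of the largest differences came from genes next to each other. On chromosome 19 a run of 5 neighbours was near silent in WT under PB and expressed in KO: FAM71E1 (0 against 2.90 CPM), EMC10 (0.0436 against 42.0 CPM), JOSD2 (0.184 against 6.02 CPM), ASPDH (0.365 against 15.4 CPM) and SYT3 (0 against 0.808 CPM). Across all 6 WT libraries the highest count was 0 reads for FAM71E1, 12 for EMC10, 14 for JOSD2, 36 for ASPDH and 2 for SYT3. The genes on either side were expressed in both genotypes, POLD1 at 17.6 and 26.0 CPM and C19orf48 at 17.9 and 19.8 CPM. EMC10 encodes a subunit of a membrane protein insertase.

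On chromosome 1, CADM3, its antisense transcript CADM3-AS1, the pentraxin APCS (66.1 CPM in WT, 206 CPM in KO), OR10J6P and CRP follow each other, all higher in KO. The genes beside them were higher too, PYHIN1 (1.67) and IFI16 (1.09) before and DUSP23 (0.60) and TAGLN2 (0.90) after. IGSF9, next after TAGLN2, was lower (-0.59). Reads of CADM3 and CADM3-AS1 cannot be told apart where the counting ignored strand, which is not given in the sources used here. Of 222 placed loci at least 4-fold higher in KO, 38 (17.1%) lay next to another such locus, as did 2.93% of the other placed loci. Of 77 at least 4-fold lower, 6 did (7.79%), as did 1.07% of the others. Near-identical neighbours such as SSX4 and SSX4B add to these counts.

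Beyond chromosomes 8 and 12, windows of 50 loci moved on chromosome 10, from -0.42 in the first to 0.40 in the ninth, on chromosome 13, where the lowest was -0.50, and on chromosome 22, from -0.58 to 0.46 in neighbouring stretches. The 4 list members in the raised window of chromosome 22 were CYP2D6 and CYB5R3, higher in KO, PPARA, lower (-0.26, and -0.0063 with total scaling), and PNPLA3, not called (-0.0076, and 0.24 with total scaling).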
